A study of Mus musculus with 18 samples.

Results

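MC38, a mouse colon carcinoma line, was injected into the spleen of WT mice fed a low-fat diet (LFD) or a high-fat diet (HFD), and RNA of the tumours that formed in the liver was sequenced. The tumours of LFD mice (n = 5) and of HFD mice (n = 5) make up 10 of the 18 samples of the series and stand in 1 table of estimated counts per gene, which was fitted alone. The other samples carry hairpins in MC38 cells and were quantified separately. Both groups are labelled with the WT genotype, the same line, the splenic route and the extraction of total RNA from tumour tissue, and differ by their labels in diet alone. The labels do not give the age or sex of the mice, the time after injection or the fat content of the diets, and do not say whether each library came from its own animal or whether the cells injected for both diets came from 1 stock.

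Cells injected into the spleen travel with the portal blood to the liver sinusoids, where they meet hepatocytes, Kupffer cells, sinusoidal endothelium and stellate cells. A growing metastasis draws in fibroblasts, vessels and leukocytes, and host liver often remains at its margin, so RNA of a dissected tumour mixes the RNA of all of these. High-fat feeding leads to lipid storage in hepatocytes, and the fatty liver has been studied as a site that receives colon cancer cells.

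The libraries held 17766200 to 18299500 estimated counts in LFD and 18057400 to 18474200 in HFD. Albumin, the main secreted protein of hepatocytes, made up 0.579% to 3.52% of the counts of the LFD libraries and 0.0184% to 0.205% of those of the HFD libraries. By two-sided exact permutation the difference of the mean log2 shares, -4.603, had p = 0.00794, the smallest value that 5 against 5 libraries can give. Replicates 1 and 5 of LFD held the most albumin (2.13% and 3.52%) and replicate 2 the least of that diet (0.579%), and replicates 1 and 2 of HFD held more (0.158% and 0.205%) than replicates 3 to 5 (0.0184% to 0.0365%). Xist, transcribed from the inactive X chromosome of female cells, had 1406 to 2579 counts in the LFD libraries and 1 to 6 in HFD, while 4 Y-linked genes summed to 708 to 1640 and 457 to 650 counts. Xist RNA, which marks female cells, was thus present in LFD and nearly absent from HFD. Y-linked RNA was present in both and lower in HFD without overlap. The sex of the cells behind either RNA was not given by the labels and cannot be told apart from diet here. HFD replicates 1 and 2 and HFD replicates 3 and 4 were closer to each other (biological coefficient of variation 7.31% and 6.38%) than any other pair of libraries on the same diet (12.8% to 51.6%), though above sampling noise. The TMM scaling factors were 0.684 to 1.06 in LFD and 1.09 to 1.11 in HFD, and mitochondrial genes took 6.83% to 10.4% and 5.69% to 6.34% of the counts, neither with overlap. Their part in the results was not tested. Markers of the labelled tissue were uneven: the epithelial adhesion gene Epcam was at 0.553 to 1.62 CPM over the 10 libraries and villin (Vil1) did not pass the filter on low counts, whereas vimentin (Vim), a mesenchymal filament, was at 814 to 2804 CPM.

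**Figure D1:**
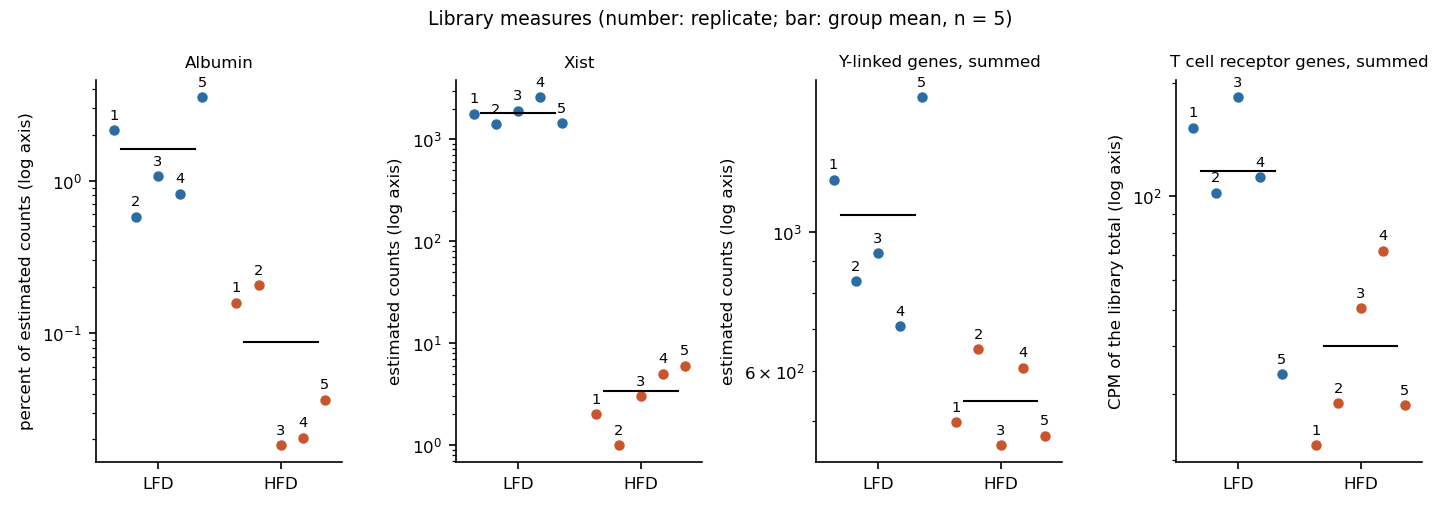
Share of albumin in the counts (percent), counts of Xist, summed counts of the Y-linked genes and summed CPM (of the library total) of the T cell receptor genes in each LFD and HFD library, on log axes. Each number is a replicate and each bar the group mean. Albumin, Xist and the Y-linked sum separate the diets without overlap, and LFD replicate 5 has the highest albumin share and the lowest T cell sum of its diet.

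Each gene was compared between the diets with edgeR's quasi-likelihood F test, with p adjusted over all 16340 genes tested by the Benjamini-Hochberg method, and a gene is said to have risen or fallen in HFD where the adjusted p was under 0.05. Values in brackets after a gene are log2 fold changes, HFD over LFD, ± SE. Levels are CPM on TMM-scaled library sizes, and values of single libraries are given in the order of replicates 1 to 5. Sums over a list are in CPM of the unscaled library total. Of all genes tested 41.1% passed, 19.4% higher and 21.6% lower in HFD, and 30.6% showed no overlap of the groups. To set host liver apart, the deviations of each gene from its diet's mean log2 CPM were correlated with those of Alb over the 10 libraries. A gene with a correlation of at least 0.5 followed albumin (3850 genes), one at or below -0.5 ran opposite to it (3580 genes), and the other 8910 did not follow it. These correlations describe 10 libraries that also share their depth and scaling, and 1159 genes lay just inside the limit (absolute r 0.45 to 0.5) and 1228 just outside it (0.5 to 0.55). Among the 8910 genes, 2258 correlated with Alb in opposite directions in the diets, each beyond 0.5.

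Genes that followed albumin were mostly lower in HFD, with 1992 falls, 170 rises and a median log2 fold change of -0.68. Among genes that did not follow it, 24.3% rose (2163) and 13.3% fell (1184), the median was 0.09, and the groups did not overlap in 28.3%. The split depends on the scaling: with liver genes left out of the scaling and the fit, 1501 rose and 1752 fell, and with upper-quartile factors 2564 rose and 859 fell. Leaving out the liver genes moved the median of this class from 0.09 to -0.03, so log2 fold changes below carry an uncertainty of about that shift. With the log2 level of Alb as a covariate 245 of these genes passed, in the same direction each. Alb separated the diets without overlap, so this fit can hardly tell diet from liver share. A call lost in it does not give the reason for the loss. In bulk tissue, fewer cells of a type and less RNA per cell cannot be told apart.

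**Figure D2:**
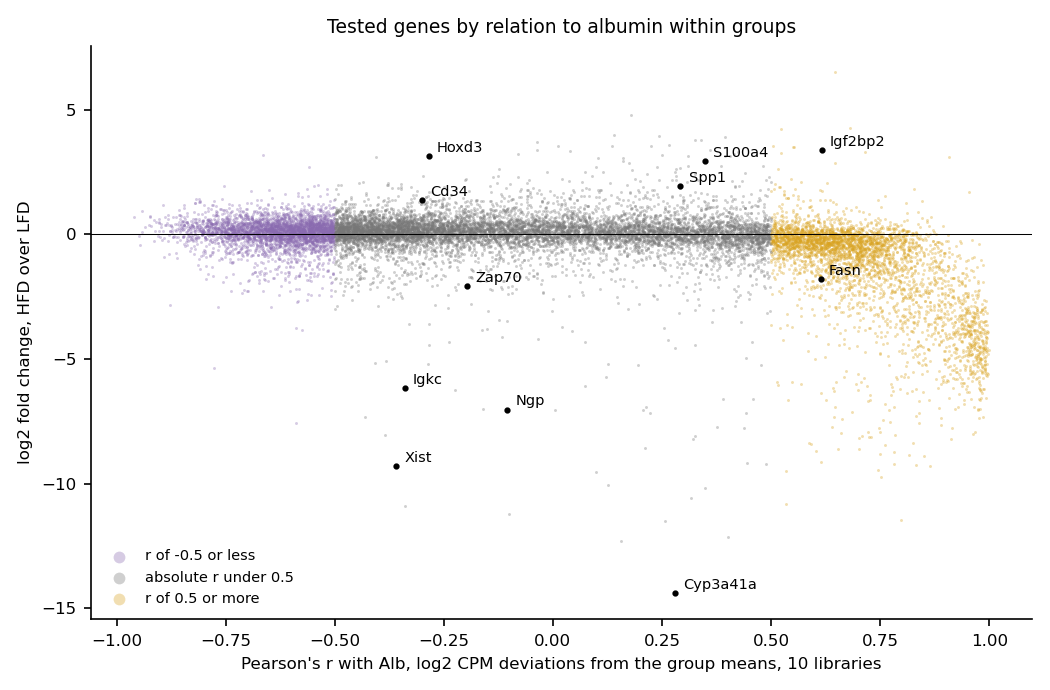
Correlation of each tested gene with Alb over the 10 libraries after removing the diet means (horizontal axis) against its log2 fold change, HFD over LFD (vertical axis), with the classes of genes coloured. Genes that followed albumin reach far below 0, with a median of -0.68, while those that did not follow it have a median of 0.09.

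Tumour-related and stromal lists held more rises than falls, and immune lists more falls than rises. Of 118 genes on the tumour lists that did not follow albumin, 44 rose and 6 fell (median 0.29), and of 84 on the stromal lists 36 rose and 6 fell (median 0.52). Of 144 genes on the immune lists 10 rose and 67 fell (median -0.67). With liver genes left out of the scaling these counts were 37 and 10, 34 and 8, and 7 and 84, in the same order, and with LFD replicates 2 and 5, which stood apart, left out they were 48 and 8, 36 and 8, and 7 and 83. With Alb as a covariate they were 7 and 1, 7 and 0, and 1 and 14, and of 138 called genes described below 55 passed. With HFD replicates 1 and 2 and HFD replicates 3 and 4 each summed to 1 library, Lin28b, Srebf2, Mcam, Havcr2, Il1rl1 and B2m lost their calls (adjusted p 0.0550 to 0.0849), and the counts below of growth factor, hypoxia, dendritic cell, MHC class I and class II genes fell to 3, 3, 3, 3 and 2. Of the most changed genes named for this class, 13 of the 15 largest rises and all 15 largest falls showed no overlap of the diets, which the choice of these genes favours.

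The largest rise among genes that did not follow albumin and had a mean of at least 5 CPM was that of Pi16 (chr17:29317680-29330593, + strand), which encodes a peptidase inhibitor known as a marker of adventitial fibroblasts. It was at 1.10, 1.503, 1.14, 1.15 and 3.499 CPM in LFD and 9.17, 12.3, 18.03, 21.7 and 15.5 CPM in HFD (3.22 ± 0.37, adjusted p = 0.0003). Hoxd3 (chr2:74711927-74748442, + strand), a homeobox factor of the Hoxd cluster, was at 0.961, 1.45, 1.85, 1.15 and 1.63 CPM in LFD and 9.32, 12.7, 14.004, 12.9 and 13.01 CPM in HFD (3.13 ± 0.20, adjusted p = 1.93e-05). In both genes the lowest HFD library lay above the highest LFD library, and LFD replicate 5 held the most Pi16 of its diet. Ly6c1 (chr15:75044018-75048830, - strand), a surface antigen of endothelial cells and of a fibroblast subset, was at 11.6, 20.6, 15.5, 16.2 and 24.1 CPM in LFD and 102, 134, 208, 183 and 127 CPM in HFD (3.10 ± 0.25, adjusted p = 5.52e-05). Ly6c1 has a near-identical neighbour in Ly6c2, so its counts may be split between them. The groups did not overlap in Ly6c1, and HFD replicates 3 and 4 were the highest.

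S100a4 (chr3:90603771-90606045, + strand) encodes a calcium-binding protein long linked to motility and metastasis and also made by fibroblasts and leukocytes. Its level was 29.7, 60.9, 35.4, 41.1 and 230.4 CPM in LFD and 577, 641, 648, 581 and 582 CPM in HFD (2.93 ± 0.57, adjusted p = 0.00351). The HFD libraries lay close together, whereas LFD replicate 5 stood well above the other LFD libraries and below HFD. Without that library the log2 fold change was 3.88. The same library was the highest of its diet in several other rises. F2rl1 (chr13:95511732-95525227, - strand), the protease-activated receptor cleaved by trypsin, was at 4.81, 4.25, 5.07, 4.56 and 26.0 CPM in LFD and 54.5, 62.7, 66.4, 61.9 and 44.9 CPM in HFD (2.72 ± 0.54, adjusted p = 0.00377; 3.65 without LFD replicate 5). Ahnak2 (chr12:112772194-112802657, - strand), a giant scaffold protein, was at 3.16, 3.68, 5.18, 3.67 and 13.2 CPM in LFD and 30.3, 35.2, 39.8, 40.3 and 35.5 CPM in HFD (2.67 ± 0.38, adjusted p = 0.000797). Nova1 (chr12:46694517-46818929, - strand), a splicing regulator best known from neurons, was at 0.549, 2.54, 0.545, 2.36 and 5.78 CPM in LFD and 16.8, 14.1, 17.8, 16.3 and 10.95 CPM in HFD (2.71 ± 0.56, adjusted p = 0.00431; 3.34 without LFD replicate 5). In these genes too the HFD libraries stood above each LFD library. Albumin was highest in LFD replicate 5, whose part in these values was not tested beyond leaving it out.

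**Figure D3:**
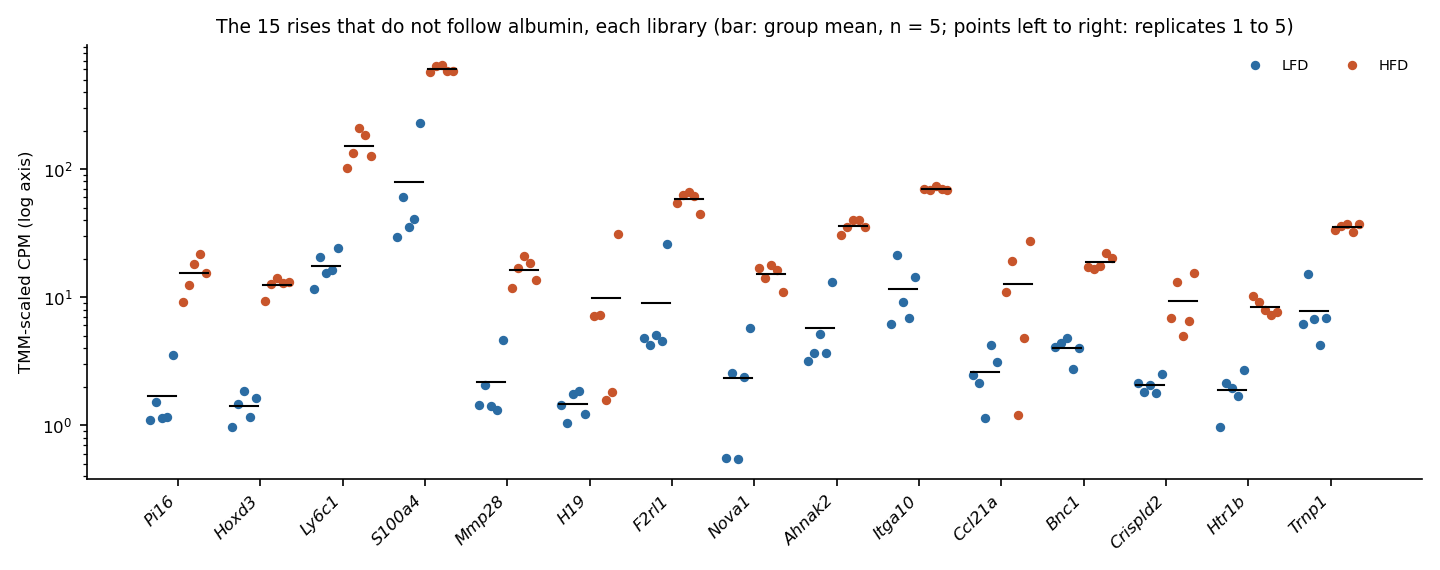
CPM in each library (log axis) of the 15 genes with the largest rises in HFD among those that did not follow albumin, LFD and HFD side by side. In 13 of the 15 genes the lowest HFD value lies above the highest LFD value, and H19 and Ccl21a overlap.

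The promoters below belong to genes of this group, and are shown because these genes moved together and because hairpins against Yap form the other experiment of the series. Yap acts through the TEAD factors, whose core site holds the letters GGAATG. The 250 bases before the start were taken from RefSeq (GRCm38.p6) for the 13 of 15 rises with an entry and searched on both strands. The RefSeq start lies 6915 bases inside the printed interval of Ahnak2, 1202 inside that of Pi16 and 162 inside that of Nova1, and within 66 bases of the gene start for the others. The TEAD letters, in capitals in the lines below (as CATTCC where they lie on the other strand), occurred in 3 of the 13, against 12.6% of 32817 promoters. The AP-1 letters TGANTCA occurred in none of the 13, against 6.75% of all promoters, and the number of CG pairs was 1 to 39 with a median of 10, against a median of 6 over all promoters. The lines show the 3 promoters with TEAD letters and that of S100a4, which has none, as chr3:96645334-96645583 (+), chr12:112795743-112795992 (-), chr12:46818768-46819017 (-) and chr3:90603520-90603769 (+). A match of letters is a description and not a binding site.
Itga10: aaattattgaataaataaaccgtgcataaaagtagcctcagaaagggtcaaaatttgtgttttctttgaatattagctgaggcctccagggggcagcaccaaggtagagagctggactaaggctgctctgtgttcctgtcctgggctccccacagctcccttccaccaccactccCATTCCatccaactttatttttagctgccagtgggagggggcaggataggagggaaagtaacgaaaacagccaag
Ahnak2: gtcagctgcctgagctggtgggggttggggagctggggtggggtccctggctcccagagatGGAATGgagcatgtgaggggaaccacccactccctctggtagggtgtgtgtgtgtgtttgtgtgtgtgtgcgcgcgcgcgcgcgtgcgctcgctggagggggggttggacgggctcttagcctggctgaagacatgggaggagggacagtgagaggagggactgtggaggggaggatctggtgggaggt
Nova1: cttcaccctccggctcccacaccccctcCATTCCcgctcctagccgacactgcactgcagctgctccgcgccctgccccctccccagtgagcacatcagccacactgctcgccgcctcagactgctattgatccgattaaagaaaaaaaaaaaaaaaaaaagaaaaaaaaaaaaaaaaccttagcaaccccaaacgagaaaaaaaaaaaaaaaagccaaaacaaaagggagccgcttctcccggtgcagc
S100a4: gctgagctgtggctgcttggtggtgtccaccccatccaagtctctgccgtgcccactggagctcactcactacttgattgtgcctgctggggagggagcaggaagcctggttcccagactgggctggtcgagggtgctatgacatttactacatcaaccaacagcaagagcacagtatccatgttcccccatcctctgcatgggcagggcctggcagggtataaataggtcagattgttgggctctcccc

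Itga10, whose promoter is the first shown, encodes the collagen-binding integrin alpha chain of cartilage. It was at 6.11, 21.2, 9.21, 6.91 and 14.4 CPM in LFD and 69.9, 68.2, 73.3, 70.1 and 68.5 CPM in HFD (2.60 ± 0.32, adjusted p = 0.000394). Its HFD libraries differed little among themselves, while LFD replicates 2 and 5 stood above the other LFD libraries. Bnc1 (basonuclin), a zinc finger protein of epithelia and mesothelium, was at 4.05, 4.35, 4.80, 2.72 and 3.99 CPM in LFD and 17.05, 16.6, 17.5, 22.1 and 20.1 CPM in HFD (2.23 ± 0.16, adjusted p = 4.27e-05). Of 4 mesothelial markers that did not follow albumin 1 rose in edgeR, Bnc1 itself, a share near the 24.3% of all such genes. In limma voom or without LFD replicate 2 the count was 2. Msln was at 52.2, 246, 66.97, 166 and 91.1 CPM in LFD and 237, 229, 213, 219 and 205 CPM in HFD (adjusted p = 0.11). Trnp1, a nuclear regulator of progenitor proliferation, was at 6.18, 15.2, 6.76, 4.19 and 6.84 CPM in LFD and 33.5, 35.7, 37.1, 32.1 and 37.2 CPM in HFD (2.16 ± 0.29, adjusted p = 0.000601), with LFD replicate 2 the highest of its diet. Htr1b, a serotonin receptor, was at 0.961, 2.12, 1.96, 1.68 and 2.69 CPM in LFD and 10.1, 9.14, 7.96, 7.30 and 7.63 CPM in HFD (2.16 ± 0.24, adjusted p = 0.000237). In Bnc1, Trnp1 and Htr1b each HFD library lay above every LFD library.

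The remaining genes of this group divided by how even they were over the HFD libraries. Mmp28 (epilysin), a matrix metalloproteinase of epithelia, was at 1.44, 2.07, 1.42, 1.31 and 4.64 CPM in LFD and 11.8, 16.8, 21.1, 18.5 and 13.5 CPM in HFD (2.93 ± 0.36, adjusted p = 0.000378). Crispld2, a secreted protein that binds endotoxin, was at 2.13, 1.81, 2.07, 1.78 and 2.52 CPM in LFD and 6.93, 13.2, 4.94, 6.49 and 15.3 CPM in HFD (2.19 ± 0.32, adjusted p = 0.0009). Neither gene overlapped between the diets, and HFD replicates 2 and 5 held the most Crispld2. H19, an imprinted fetal RNA, was at 1.44, 1.04, 1.74, 1.83 and 1.22 CPM in LFD and 7.18, 7.27, 1.56, 1.81 and 31.4 CPM in HFD (2.75 ± 0.80, adjusted p = 0.0209). HFD replicates 3 and 4 lay within the LFD range, HFD replicate 5 stood far above, and without it the log2 fold change was 1.61. Ccl21a, a chemokine of lymphatic vessels with near-identical copies, was at 2.47, 2.12, 1.14, 4.19 and 3.09 CPM in LFD and 10.97, 19.1, 1.21, 4.83 and 27.3 CPM in HFD (2.29 ± 0.72, adjusted p = 0.0286). HFD replicate 3 lay within the LFD range, and the call was lost without LFD replicate 1, LFD replicate 2, LFD replicate 3, HFD replicate 2 or HFD replicate 5 (adjusted p 0.0527 to 0.0681). H19 and Ccl21a also missed the threshold in limma voom and without LFD replicates 2 and 5. With Alb as a covariate 10 of the 15 rises passed, and Pi16, Nova1, H19, Ccl21a and Trnp1 did not.

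The S100 and annexin genes, calcium-dependent proteins of the membrane and cytoskeleton, rose in 13 of 16 members that did not follow albumin (median 0.96, against 0.09 for all such genes). S100a10, the partner of annexin A2 at the cell surface, was at 177, 215, 162, 174 and 195 CPM in LFD and 398, 413, 378, 362 and 405 CPM in HFD (1.08 ± 0.09, adjusted p = 5.68e-05). Anxa1, an annexin with anti-inflammatory actions, was at 115, 193, 139, 161 and 126 CPM in LFD and 341, 386, 315, 315 and 333 CPM in HFD (1.20 ± 0.14, adjusted p = 0.000294). The groups stood clear of each other in both genes. Low S100 genes moved too: S100a14 was at 0.275, 0.259, 0.327, 0.209 and 0.732 CPM in LFD and 1.94, 2.73, 3.68, 3.07 and 3.33 CPM in HFD (3.07 ± 0.33, adjusted p = 0.000212) and S100a3 rose by 2.08 ± 0.26. The members that did not pass were Anxa3 (0.51 ± 0.20), Anxa5 (0.30 ± 0.13) and S100a11 (0.45 ± 0.22). With Alb as a covariate 4 of these 16 genes rose. Over all 19 members tested 14 rose and 1 fell. S100a8 and S100a9, given with the neutrophil genes below, fell.

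Genes of epithelial-mesenchymal transition rose in 6 of 8 members that did not follow albumin (median 0.80). Vim was at 814, 1726, 1272, 1639 and 1181 CPM in LFD and 2651, 2759, 2593, 2555 and 2804 CPM in HFD (1.01 ± 0.18, adjusted p = 0.00216), with the lowest LFD value in replicate 1. Twist2, a mesenchymal bHLH factor, was at 20.7, 25.6, 32.4, 29.3 and 19.1 CPM in LFD and 65.7, 52.1, 55.4, 47.04 and 53.3 CPM in HFD (1.10 ± 0.15, adjusted p = 0.000663). The groups did not overlap in either gene. Further mesenchymal factors ran opposite to albumin within the diets, of which Prrx1 rose by 1.04 ± 0.10 and Twist1 by 0.80 ± 0.15. Their paralogues and partners Snai2 (-0.08 ± 0.15), Zeb1 (-0.14 ± 0.14) and Zeb2 (0.12 ± 0.12) did not pass. Mesenchymal genes are also made by fibroblasts, and their share in these values was not tested.

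The Hox genes, which keep positional identity, were uneven. Of 25 tested, 10 rose and 2 fell, but only 7 did not follow albumin and 17 ran opposite to it. Hoxd8, a neighbour of Hoxd3 in the Hoxd cluster, was at 9.20, 12.5, 13.3, 12.3 and 8.30 CPM in LFD and 33.2, 34.1, 32.4, 36.8 and 35.7 CPM in HFD (1.63 ± 0.13, adjusted p = 5.71e-05). Hoxc6 was at 25.2, 26.7, 34.1, 28.02 and 21.9 CPM in LFD and 52.1, 51.3, 80.1, 72.2 and 54.3 CPM in HFD (1.19 ± 0.16, adjusted p = 0.000581), and Hoxc5 rose by 0.95 ± 0.14. Hoxd8 and Hoxc6 ran opposite to albumin, and their diets did not overlap. Hoxa genes such as Hoxa9 (0.25 ± 0.20), Hoxa10 (-0.08 ± 0.23) and Hoxa11 (-0.18 ± 0.26) did not pass. The median of the 7 members that did not follow albumin was 0.06 and turned to -0.06 with liver genes left out of the scaling.

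Among oncofetal and imprinted genes, Igf2bp2, which binds and stabilizes growth-related mRNA, was at 4.53, 2.18, 3.27, 2.72 and 17.01 CPM in LFD and 62.7, 58.2, 52.4, 56.4 and 68.8 CPM in HFD (3.36 ± 0.55, adjusted p = 0.00158). It followed albumin within the diets (r = 0.62), with LFD replicate 5 the highest of its diet. It lay higher in HFD without overlap, and stood at 4.26 without that replicate. Hmga1, a chromatin protein of fetal and tumour cells, was at 242, 635, 328, 672 and 475 CPM in LFD and 1290.2, 1036, 1038, 957 and 1119 CPM in HFD (1.21 ± 0.26, adjusted p = 0.00484). Cdkn1c, an imprinted inhibitor of cyclin-dependent kinases, fell and was at 3.36, 4.41, 3.49, 2.41 and 2.28 CPM in LFD and 0.548, 0.657, 0.856, 0.755 and 1.81 CPM in HFD (-1.78 ± 0.34, adjusted p = 0.00277). In Hmga1 and Cdkn1c the diets did not overlap. Lin28b, an oncofetal regulator of let-7 miRNAs, fell (-1.05 ± 0.28) and ran opposite to albumin.

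Growth factor receptors and ligands rose in 6 of 15 members that did not follow albumin (median 0.39). Pdgfa, a ligand that acts on fibroblasts, was at 18.7, 22.9, 24.1, 28.7 and 31.9 CPM in LFD and 55.9, 52.5, 52.9, 52.8 and 51.1 CPM in HFD (1.07 ± 0.13, adjusted p = 0.000339), and Ephb4, a receptor for ephrin B2, was at 75.1, 82.0, 75.0, 85.1 and 76.6 CPM in LFD and 116, 118, 125, 114 and 113 CPM in HFD (0.57 ± 0.06, adjusted p = 0.000239). Neither gene overlapped between the diets. Met (-0.45 ± 0.19), the receptor of hepatocyte growth factor, Vegfa (-0.56 ± 0.32) and Igf1r (0.04 ± 0.19) did not pass. Erbb2 ran opposite to albumin and rose by 0.65 ± 0.13. With Alb as a covariate 1 of these 15 genes rose.

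Hypoxia and glycolysis genes rose in 6 of 13 members that did not follow albumin (median 0.44). Eno1 (enolase) was at 347, 410.1, 341, 381 and 464 CPM in LFD and 591, 559, 624, 615 and 552 CPM in HFD (0.60 ± 0.10, adjusted p = 0.00133), with no overlap between the diets. Aldoa, Gapdh and Pkm, which ran opposite to albumin, rose by 0.71 ± 0.11, 0.50 ± 0.10 and 0.71 ± 0.15. The hypoxia targets Car9 (0.44 ± 0.18), Pdk1 (-0.01 ± 0.27) and Egln3 (0.24 ± 0.19) did not pass. Of 25 cell cycle genes 1 rose, with a median of 0.03 that turned to -0.08 when liver genes were left out of the scaling, and the count of rises was 4 without LFD replicate 4 and 0 without HFD replicate 5. Of 8 p53 targets that did not follow albumin, Pmaip1 and Aen, both pro-apoptotic or growth-restraining, fell (-1.14 ± 0.23 and -0.61 ± 0.12). Of 11 Myc and ribosome biogenesis genes that did not follow albumin 3 rose, a share near the 24.3% of all such genes. Polr1b rose by 0.49 ± 0.12. The count was 1 without LFD replicate 1, HFD replicate 1, HFD replicate 3 or HFD replicate 5.

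Lipid synthesis genes could mostly not be separated from liver. Of 23 genes of sterol synthesis and uptake 22 followed albumin, and the 1 that did not, Srebf2, the master regulator of that pathway, was at 173, 125, 207, 162 and 168 CPM in LFD and 105, 119, 128, 128 and 122 CPM in HFD (-0.47 ± 0.12, adjusted p = 0.012). HFD replicates 3 and 4 lay above LFD replicate 2, so the diets overlapped. Of 16 fatty acid genes 13 followed albumin and 13 fell. Of the 3 that did not follow albumin 2 rose. Elovl7, a fatty acid elongase, was at 0.618, 1.30, 0.926, 1.26 and 3.99 CPM in LFD and 7.78, 7.58, 7.66, 7.09 and 5.48 CPM in HFD (2.17 ± 0.42, adjusted p = 0.00317; 2.80 without LFD replicate 5), and Scd2, the stearoyl-CoA desaturase expressed outside the liver, was at 375, 449, 548, 423 and 438 CPM in LFD and 577, 609, 622, 622 and 619.9 CPM in HFD (0.45 ± 0.10, adjusted p = 0.0054). In both genes each HFD library stood above every LFD library, and Elovl1 was at 0.04 ± 0.06.

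Stromal genes that did not follow albumin rose in 36 of 84 (42.9%, beside 24.3% of all such genes). Of 15 fibroblast and fibrillar matrix genes 7 rose (median 0.50). Dcn (decorin), a proteoglycan that coats collagen fibrils, was at 357, 338, 308, 189 and 314 CPM in LFD and 482, 613, 679, 813 and 668 CPM in HFD (1.11 ± 0.18, adjusted p = 0.00149), and Col3a1, a fibrillar collagen, was at 3496, 2594, 3338, 2150.4 and 1741 CPM in LFD and 4142, 4896, 5137, 5451 and 5554 CPM in HFD (0.92 ± 0.19, adjusted p = 0.0043). In both genes the highest LFD library lay below the lowest HFD library, and LFD replicate 4 or 5 was the lowest. Fbn1 (fibrillin) rose by 0.88 ± 0.15 and Loxl1, which crosslinks elastin, by 0.97 ± 0.16. Postn (-0.62 ± 0.27), Fap (-0.77 ± 0.38), Thy1 (-0.54 ± 0.29) and Pdgfra (0.06 ± 0.23) did not pass.

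Genes of universal and inflammatory fibroblasts rose in 5 of 7 that did not follow albumin (median 1.03), Pi16 and Ly6c1 among them. Over all 15 members tested 6 rose and 4 fell, and 5 followed albumin and 3 ran opposite to it. Cd34, a sialomucin of fibroblast progenitors and endothelium, was at 112, 143, 132, 142 and 135 CPM in LFD and 330.1, 349.9, 341, 332 and 383 CPM in HFD (1.38 ± 0.08, adjusted p = 1.68e-05). Each HFD library held more than 2-fold the level of any LFD library. Gsn (gelsolin), which cuts actin filaments and is abundant in such fibroblasts, ran opposite to albumin and rose by 0.89 ± 0.13. Contractile genes of myofibroblasts rose in 5 of 11 and fell in 1 (median 0.73). The smooth muscle actin Actg2 was at 1.37, 2.54, 2.18, 2.30 and 1.46 CPM in LFD and 8.52, 5.61, 5.94, 5.74 and 9.78 CPM in HFD (1.84 ± 0.24, adjusted p = 0.000527) and calponin Cnn1 at 0.755, 0.726, 0.817, 0.576 and 0.488 CPM in LFD and 2.54, 1.46, 1.21, 1.81 and 3.37 CPM in HFD (1.61 ± 0.31, adjusted p = 0.00296). HFD replicates 1 and 5 were the highest for both. Lrrc15, a marker of cancer-associated myofibroblasts, rose by 1.40 ± 0.28, Cald1 fell (-0.47 ± 0.08), and Acta2 (0.45 ± 0.23) and Tagln (-0.28 ± 0.24) did not pass.

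Among matricellular genes 5 of 9 rose and 1 fell (median 0.81). Spp1 (osteopontin, chr5:104435118-104441050, + strand), a phosphoprotein made by tumour cells, macrophages and bile duct cells, was at 255, 301, 269, 292 and 446 CPM in LFD and 1129, 1227, 1164, 1319 and 1103 CPM in HFD (1.93 ± 0.15, adjusted p = 5.14e-05). LFD replicate 5 was the highest of its diet and still lay far below the lowest HFD library. Spp1 is also on the list of bile duct (cholangiocyte) markers, and makes up most of its sum, which was 245 to 349.5 CPM of the library total in LFD and 1301 to 1504 in HFD. Of the 6 other markers tested Sox9 rose by 0.92 ± 0.16 and 1 fell, and 3 of the 7 markers tested followed albumin. Krt19 (1.40 ± 0.66) and Krt7 (0.28 ± 0.48) were at 0.105 to 6.60 CPM and did not pass. The part of bile duct cells in the Spp1 value was not tested. Tnc (tenascin C) was at 50.7, 25.2, 46.4, 43.4 and 76.7 CPM in LFD and 97.5, 111, 168, 153 and 99.8 CPM in HFD (1.38 ± 0.28, adjusted p = 0.00363), Thbs2 rose by 1.02 ± 0.14, and Smoc2 fell (-1.72 ± 0.36). The diets did not overlap in Tnc. Ccn2 (0.63 ± 0.57) and Ccn1 (-0.13 ± 0.22), secreted targets of Yap, and Yap1 itself (-0.15 ± 0.07) did not pass.

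Basement membrane genes rose in 3 of 5 that did not follow albumin, and 9 of the 18 tested ran opposite to it. Lama5, a laminin chain of epithelial and vascular basement membranes, was at 6.45, 4.25, 8.06, 3.04 and 8.79 CPM in LFD and 18.04, 19.7, 19.7, 17.8 and 19.1 CPM in HFD (1.63 ± 0.26, adjusted p = 0.00117). In this gene each HFD library stood above every LFD library. Lamb1 and Col4a5, which ran opposite to albumin, rose by 0.998 ± 0.16 and 1.21 ± 0.23, while Col4a1 (0.45 ± 0.17) and Col4a2 (0.34 ± 0.18) did not pass. Matrix proteases and their inhibitors rose in 5 of 9 (median 0.82), with Timp1 at 22.4, 20.4, 21.5, 25.4 and 17.9 CPM in LFD and 33.1, 41.8, 31.5, 35.1 and 50.4 CPM in HFD (0.83 ± 0.14, adjusted p = 0.00181). The inhibitor Timp2 and the aggrecanase Adamts4 ran opposite to albumin and rose by 1.06 ± 0.17 and 1.04 ± 0.10. With Alb as a covariate Lama5, Spp1, Cd34, Prrx1 and Mmp28 still passed. Dcn, Col3a1, Fbn1, Loxl1, Gsn, Actg2, Cnn1, Lrrc15, Tnc, Thbs2, Smoc2, Lamb1, Col4a5, Timp1, Timp2 and Adamts4 did not. Each of the genes that lost its call kept its direction. With the covariate the log2 fold change was larger in size for Lrrc15 (1.59), Tnc (1.63) and Smoc2 (-1.95). It was smaller for the others, at 0.37 (Col4a5) to 1.60 (Cnn1).

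Of 11 liver sinusoidal endothelial markers 5 fell (median -1.44) and 7 followed albumin. Of the 4 that did not follow it 0 passed in edgeR, DESeq2 or limma voom, and 0 had an unadjusted p under 0.05 in edgeR. Of 16 endothelial markers 12 followed albumin, and of the 4 that did not 0 passed in edgeR, DESeq2 or limma voom, with 0 at an unadjusted p under 0.05 in edgeR. Pecam1 (CD31), one of these, was at 38.04, 22.5, 30.2, 18.6 and 32.6 CPM in LFD and 20.4, 31.8, 22.5, 26.1 and 33.3 CPM in HFD (log2 fold change -0.08 ± 0.21). Unc5b, a netrin receptor of sprouting vessels, was at 38.1, 63.1, 59.2, 68.7 and 57.6 CPM in LFD and 103, 106, 106, 97.0 and 100.5 CPM in HFD (0.84 ± 0.14, adjusted p = 0.0013), Nrp1 fell (-0.38 ± 0.10) and was not called with upper-quartile factors, and Angpt2 was at 0.28 ± 0.27. Ngfr, a neurotrophin receptor of stellate cells and nerves, was at 4.46, 5.91, 4.41, 8.64 and 9.36 CPM in LFD and 1.59, 1.06, 1.16, 1.16 and 1.08 CPM in HFD (-2.43 ± 0.26, adjusted p = 0.000226), with no overlap between the diets. Of the 10 stellate cell markers 3 fell and 1 rose (median -1.34), and 8 followed albumin. Cspg4, a pericyte proteoglycan that followed albumin (r = 0.52), rose by 1.91 ± 0.24, Mcam fell (-0.61 ± 0.16), and Pdpn, of lymphatic vessels and fibroblasts, rose by 0.81 ± 0.21.

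Of 144 immune genes that did not follow albumin 67 fell (46.5%, beside 13.3% of all such genes). The common leukocyte gene Ptprc (CD45) was at 154, 110.3, 162, 164 and 77.0 CPM in LFD and 50.1, 56.4, 68.8, 88.2 and 54.9 CPM in HFD (-1.07 ± 0.23, adjusted p = 0.00485), and ran opposite to albumin. HFD replicate 4 lay above LFD replicate 5, the LFD library with the most albumin, and all other HFD libraries lay below the LFD libraries. Itgal, the leukocyte integrin LFA-1, was at 74.6, 44.5, 76.8, 89.4 and 47.9 CPM in LFD and 16.9, 18.7, 27.6, 33.8 and 15.3 CPM in HFD (-1.57 ± 0.27, adjusted p = 0.00187), with no overlap. Rac2 and Lcp1 fell (-0.82 ± 0.18 and -0.58 ± 0.11), and Laptm5 (-0.29 ± 0.17), Cd53 (-0.41 ± 0.17) and Cd37 (0.06 ± 0.16) did not pass.

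T cell receptor genes fell in 15 of 15 tested, beside 21.6% of all genes tested. Zap70, the kinase bound to the activated receptor, was at 12.8, 4.35, 9.54, 5.60 and 7.24 CPM in LFD and 1.10, 1.31, 2.97, 2.77 and 1.08 CPM in HFD (-2.10 ± 0.40, adjusted p = 0.00273). The co-receptor gene Cd4, also made by some macrophages, was at 9.82, 6.89, 8.28, 13.3 and 5.86 CPM in LFD and 1.35, 1.82, 2.22, 3.07 and 1.52 CPM in HFD (-2.15 ± 0.29, adjusted p = 0.000562). In both genes each HFD library lay below every LFD library, and HFD replicates 3 and 4 were the highest of their diet. Cd8a was at 30.8, 20.7, 25.1, 17.7 and 4.88 CPM in LFD and 2.64, 4.70, 8.46, 12.5 and 4.01 CPM in HFD (-1.62 ± 0.52, adjusted p = 0.0316), and here LFD replicate 5 lay below HFD replicates 3 and 4. Of these 15 genes 9 ran opposite to albumin within the diets and 6 did not follow it. All 6 fell, and with Alb as a covariate 0 of the 6 passed. Summed over the list, T cell genes were at 33.7 to 183 CPM in LFD and 21.9 to 71.8 CPM in HFD.

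Genes on the lists of T cell states went in both directions, and the part of other cells in their values was not tested. Lef1, a factor of naive T cells, was at 4.53, 3.42, 6.16, 7.80 and 1.79 CPM in LFD and 0.797, 0.657, 0.856, 0.755 and 0.733 CPM in HFD (-2.64 ± 0.36, adjusted p = 0.0006), and Tox, a factor of exhausted T cells, at 11.7, 7.83, 7.57, 6.39 and 10.2 CPM in LFD and 0.897, 0.707, 1.96, 3.17 and 0.782 CPM in HFD (-2.53 ± 0.42, adjusted p = 0.00149), neither with overlap. Satb1 and Icos fell (-1.78 ± 0.27 and -1.99 ± 0.33). Klf2, a factor of quiescent T cells and also of endothelium, went the other way at 36.5, 28.6, 27.03, 33.9 and 30.4 CPM in LFD and 74.9, 74.1, 79.7, 68.7 and 78.8 CPM in HFD (1.27 ± 0.09, adjusted p = 4.27e-05) with no overlap. Of 10 naive and memory genes that did not follow albumin 5 fell and Klf2 alone rose, and 9 fell with liver genes left out of the scaling and 8 in DESeq2. Havcr2 (TIM-3), also on macrophages, rose by 0.41 ± 0.11, Lag3 and Cxcr6 fell (-1.17 ± 0.27 and -1.92 ± 0.50), and Foxp3 (-1.34 ± 0.49) and Tcf7 (-0.42 ± 0.16) did not pass. The count of exhausted T cell genes that rose, 2 of 5, was 1 without LFD replicate 2, LFD replicate 3, HFD replicate 1, HFD replicate 3 or HFD replicate 4.

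Natural killer cell genes fell in 12 of 14 tested and rose in 1, where 21.6% of all genes tested fell and 19.4% rose. Of the 5 that did not follow albumin 4 fell and 1 rose. Gzma (granzyme A) was at 3.43, 2.28, 3.11, 2.25 and 1.22 CPM in LFD and 0.299, 0.909, 0.554, 0.453 and 0.196 CPM in HFD (-2.34 ± 0.40, adjusted p = 0.0017) and Klrk1 (NKG2D) at 17.7, 4.92, 15.1, 6.81 and 5.53 CPM in LFD and 1.59, 1.77, 3.53, 3.32 and 1.96 CPM in HFD (-2.04 ± 0.42, adjusted p = 0.00427). Neither gene overlapped between the diets. Tbx21 and Klrb1c fell (-1.92 ± 0.36 and -1.69 ± 0.36). Il1rl1, the receptor for IL-33 on innate lymphoid and regulatory T cells and on some tumour cells, was at 7.28, 17.1, 8.72, 21.9 and 48.3 CPM in LFD and 71.3, 75.6, 52.5, 54.8 and 59.9 CPM in HFD (1.61 ± 0.47, adjusted p = 0.0204; 2.21 without LFD replicate 5), each HFD library above every LFD library.

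B cell genes fell in 8 of 8 tested and plasma cell genes in 5 of 7, beside 21.6% of all genes tested. Of the members that did not follow albumin, 4 of 4 B cell genes and 3 of 3 plasma cell genes fell. Jchain, which joins secreted IgA and IgM, was at 2.75, 42.9, 1.42, 36.4 and 7.57 CPM in LFD and 0.0997, 0.808, 0.151, 0.704 and 0.685 CPM in HFD (-5.20 ± 1.09, adjusted p = 0.00485), and the kappa constant gene Igkc at 13.5, 490.3, 9.37, 263 and 47.8 CPM in LFD and 0.997, 2.68, 1.06, 2.47 and 4.11 CPM in HFD (-6.18 ± 1.24, adjusted p = 0.00399). LFD replicates 2 and 4 held most of the RNA of both plasma cell genes, and without replicate 2 the log2 fold changes were -4.61 and -5.20. In limma voom neither Jchain nor Igkc passed. Pou2af1 and Irf4 fell (-5.08 ± 0.74 and -1.61 ± 0.28), and Prdm1 (-0.54 ± 0.27) and Sdc1 (-0.59 ± 0.24) did not pass.

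Of 12 neutrophil genes that did not follow albumin, 6 fell. The granule genes made by neutrophil precursors were nearly absent from HFD, where Ngp was at 13.7, 26.7, 9.37, 16.4 and 10.3 CPM in LFD and 0.150, 0.152, 0.201, 0.0503 and 0 CPM in HFD (-7.04 ± 0.52, adjusted p = 4.27e-05), Elane (neutrophil elastase) at 7.14, 7.72, 5.56, 3.93 and 4.80 CPM in LFD and 0.0498, 0.101, 0, 0.101 and 0.147 CPM in HFD (-6.07 ± 0.42, adjusted p = 3.44e-05) and Ltf (lactoferrin) at 4.19, 10.4, 3.81, 5.34 and 5.53 CPM in LFD and 0, 0.152, 0.101, 0.0503 and 0.0489 CPM in HFD (-6.25 ± 0.50, adjusted p = 5.52e-05). Each LFD library held all 3 of these genes, and no HFD library held more than 0.201 CPM of any. Mpo fell (-5.74 ± 0.67), and so did S100a8 (-3.16 ± 0.45) and S100a9 (-3.09 ± 0.60), which mature neutrophils also make. The growth factor receptor Csf3r ran opposite to albumin and was at 20.5, 20.2, 26.4, 17.96 and 16.3 CPM in LFD and 12.8, 14.4, 17.1, 18.6 and 13.6 CPM in HFD (log2 fold change -0.41 ± 0.15), and Cxcr2 (0.26 ± 0.77) and Il1b (-0.61 ± 0.57) did not pass either. Summed over the list, neutrophil genes were at 294 to 467 CPM in LFD and 206 to 556 CPM in HFD, which overlap. Elane and Ltf passed with Alb as a covariate, and so did Ngp.

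**Figure D4:**
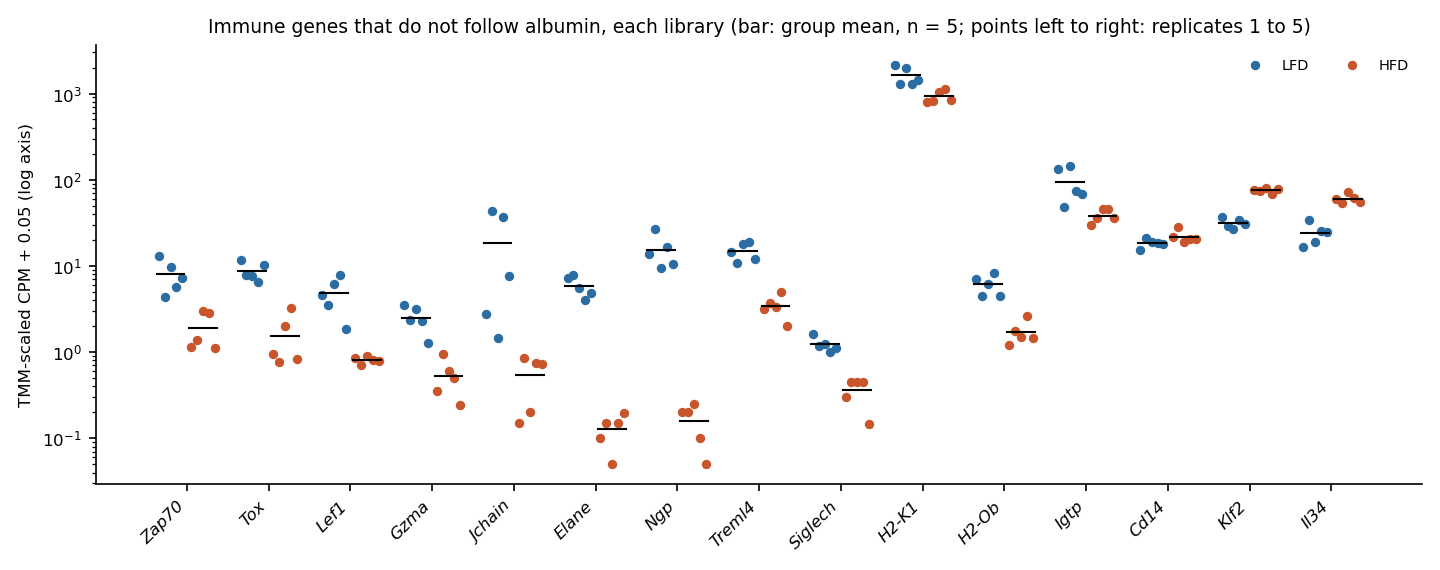
CPM (plus 0.05, log axis) of 15 immune genes in each LFD and HFD library. Elane and Ngp lie near 0 in HFD, Cd14 overlaps between the diets, and Klf2 and Il34 are the genes shown in which every HFD library lies above the LFD libraries.

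Few genes of tumour-associated macrophages passed. Of 17 genes of tumour-associated macrophages 1 fell in edgeR and 11 ran opposite to albumin. Of the 6 that did not follow albumin 0 passed in edgeR, DESeq2 or limma voom, and 1 had an unadjusted p under 0.05 in edgeR. Without LFD replicate 3, 1 of the 6 fell. Cd14, chosen here after its values were seen, was at 15.2, 20.8, 19.02, 18.3 and 17.7 CPM in LFD and 21.6, 28.2, 18.7, 20.3 and 20.2 CPM in HFD (log2 fold change 0.26 ± 0.13, adjusted p = 0.126), with overlapping diets. Adgre1 (F4/80) was at -0.18 ± 0.13, Csf1r at -0.24 ± 0.17, C1qa at -0.03 ± 0.19 and Mrc1 at -0.60 ± 0.34. Il34, a ligand of the macrophage receptor Csf1r, was at 16.4, 34.3, 19.02, 25.1 and 24.4 CPM in LFD and 58.9, 53.6, 71.6, 60.9 and 55.5 CPM in HFD (1.33 ± 0.18, adjusted p = 0.000624), while Ccl3 fell and was at 6.94, 4.66, 3.65, 3.04 and 1.79 CPM in LFD and 0.947, 1.31, 1.81, 1.11 and 1.22 CPM in HFD (-1.65 ± 0.34, adjusted p = 0.00409). In Il34 each HFD library stood above every LFD library, and in Ccl3 LFD replicate 5 lay just below HFD replicate 3. Treml4, of non-classical monocytes and splenic macrophages, was at 14.6, 10.8, 17.9, 18.7 and 11.96 CPM in LFD and 3.09, 3.69, 3.32, 4.88 and 1.96 CPM in HFD (-2.12 ± 0.25, adjusted p = 0.000308), with no overlap. Of 11 Kupffer cell markers 6 fell (median -1.89), and their sum was 298 to 408 CPM in LFD and 115 to 249 in HFD. Of these markers 8 followed albumin, and Clec4f and Timd4, among these, fell (-2.71 ± 0.75 and -3.01 ± 0.58).

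Dendritic cell genes fell in 6 of 11 that did not follow albumin (median -0.84). Siglech, of plasmacytoid dendritic cells, was at 1.58, 1.14, 1.20, 0.943 and 1.06 CPM in LFD and 0.249, 0.404, 0.403, 0.403 and 0.0978 CPM in HFD (-1.90 ± 0.32, adjusted p = 0.00169), and Batf3, the factor of cross-presenting dendritic cells, at 6.39, 3.16, 6.97, 4.24 and 2.93 CPM in LFD and 1.10, 0.960, 1.81, 2.21 and 0.978 CPM in HFD (-1.74 ± 0.34, adjusted p = 0.00311). The diets did not overlap in either gene. Irf8, Cd209a and the co-stimulatory ligand Cd86 fell (-0.66 ± 0.16, -2.60 ± 0.58 and -1.13 ± 0.17). Zbtb46 (0.20 ± 0.10) and Fscn1 (-0.13 ± 0.26) did not pass.

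Antigen presentation genes were lower in part. Of 10 MHC class I genes that did not follow albumin 8 fell (median -0.64). H2-K1 was at 2117, 1306, 1985, 1282 and 1416 CPM in LFD and 799.6, 808, 1030.4, 1133 and 847 CPM in HFD (-0.81 ± 0.18, adjusted p = 0.00521), and Nlrc5, the transactivator of class I genes, at 95.9, 71.7, 105, 82.9 and 62.3 CPM in LFD and 38.6, 42.1, 48.7, 57.5 and 40.9 CPM in HFD (-0.87 ± 0.16, adjusted p = 0.00231). Neither gene overlapped between the diets, and B2m and H2-Q7, the latter one of several near-identical genes, fell (-0.63 ± 0.16 and -1.72 ± 0.34). The count was 5 of 10 without LFD replicate 1, LFD replicate 3, HFD replicate 1, HFD replicate 2 or HFD replicate 5. Of 8 class II genes 4 fell in edgeR and 8 in DESeq2, among them H2-Ob, which with H2-Oa restrains peptide loading in B cells, at 7.004, 4.46, 6.10, 8.22 and 4.39 CPM in LFD and 1.15, 1.72, 1.46, 2.57 and 1.42 CPM in HFD (-1.86 ± 0.26, adjusted p = 0.000728). The peptide-presenting chain H2-Ab1 was at 715, 139, 613, 212 and 202 CPM in LFD and 40.8, 73.6, 159, 300.4 and 82.9 CPM in HFD (log2 fold change -1.52 ± 0.63, adjusted p = 0.0811). LFD replicates 1 and 3 were the highest for H2-Ab1, and HFD replicates 3 and 4 lay above LFD replicate 2. The class II count was 2 without LFD replicate 1, LFD replicate 3 or any of HFD replicates 1, 2, 3 and 5, and 8 without HFD replicate 4.

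Interferon-stimulated genes fell in 6 of 23 that did not follow albumin (median -0.32). Igtp, a GTPase induced by interferon gamma, was at 132, 48.6, 143, 73.6 and 67.9 CPM in LFD and 29.6, 35.8, 45.5, 45.2 and 35.5 CPM in HFD (-1.28 ± 0.29, adjusted p = 0.0067), and its relative Irgm1 fell (-0.99 ± 0.21). The diets did not overlap in Igtp, and LFD replicates 1 and 3 were the highest, as for H2-Ab1. Irf7 fell (-0.81 ± 0.20) and Ifih1 (-0.47 ± 0.10). Ifit1 (0.26 ± 0.21), Isg15 (-0.32 ± 0.21), Rsad2 (-0.23 ± 0.20) and Oas1a (-0.22 ± 0.20) did not pass. The count was 10 in DESeq2, with liver genes left out of the scaling or without LFD replicate 2. It was 15 without LFD replicates 2 and 5. With Alb as a covariate Lcp1, Zap70, Tox, Icos, Lag3, Cxcr6, Havcr2, Gzma, Klrk1, Tbx21, Klrb1c and Il1rl1 lost their calls. So did Il34, Ccl3, Siglech, Batf3, Cd209a, H2-K1, H2-Q7, B2m, Igtp, Irgm1, Irf7 and Ifih1. Ptprc, Itgal, Rac2, Cd4, Lef1, Satb1, Klf2, Jchain, Igkc, Pou2af1, Irf4, Treml4, Cd86, Irf8, Nlrc5 and H2-Ob kept theirs.

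Genes of other tissue made up most of the largest falls. Of 13 female-biased liver genes 13 fell, and 11 of them did not follow albumin, although the liver is their known site of expression. The falls named for this class included 7 of them. Over the LFD libraries alone, r with Alb was 0.25 to 0.64 in these 7 genes. Where HFD held 0 counts, only the LFD libraries could show a relation to albumin. Their class therefore does not set them apart from liver. Male-biased liver genes fell too, in 8 of 9 tested (median -5.92), and all 9 followed albumin. Summed over the list, male-biased genes were at 53.6 to 7308 CPM in LFD and 35.03 to 385.5 CPM in HFD, which overlap. LFD replicates 1 and 5, which held the most albumin, had 7308 and 6775 CPM. Cyp3a41a was at 155, 76.3, 125, 212 and 164 CPM in LFD and had 0 counts in each HFD library, at least 976.1-fold lower against a floor of 3 counts per library. Against the same floor Cyp3a41b was at least 231.5-fold, Sult2a1 at least 207.9-fold, Cyp2b13 at least 130.2-fold and Sult2a2 at least 70.04-fold lower in HFD, and the near-identical members of the Cyp3a41 and Sult2a pairs may share counts. Cyp2a4 had 5279 counts in LFD and 2 in HFD, a ratio on scaled library sizes of 3159 (95% counting interval 874 to 26090), and Cyp2c69 1262 and 2, a ratio of 755.1 (208.6 to 6242). Xist was at 122, 72.9, 104, 135 and 118 CPM in LFD and 0.0997, 0.0505, 0.151, 0.252 and 0.293 CPM in HFD (-9.29 ± 0.32, adjusted p = 2.02e-07). The LFD libraries were all high and the HFD libraries all near 0 in these genes, in which the sex of the host cells and diet cannot be told apart. Left out with the other sex-linked and sex-biased genes, they changed the count of calls from 6710 to 6683, with 16313 genes tested in place of 16340. Removing these genes cannot show whether the sex of the host cells affects other genes.

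The other large falls came from liver and blood. Serpina6, the cortisol-binding globulin made by the liver, was at 242, 80.1, 132, 119 and 310.1 CPM in LFD and 0.349, 0.152, 0.101, 0.302 and 0.538 CPM in HFD (-9.22 ± 0.57, adjusted p = 2.30e-05), just under the limit for following albumin (r = 0.49). Ugt1a5, which shares exons with other Ugt1a genes, was at 48.8, 16.6, 19.8, 31.1 and 81.6 CPM in LFD and 0.449, 0, 0.453, 0 and 0.685 CPM in HFD (-6.92 ± 0.80, adjusted p = 0.000335). The urinary protein genes Mup10 and Mup18, of a near-identical family, fell (-6.61 ± 0.99 and -7.19 ± 1.47), and Mup18 stood at -6.20 without LFD replicate 1. Over the LFD libraries alone, r with Alb was 0.99 for Serpina6, 0.96 for Mup10, 0.93 for Ugt1a5 and 0.83 for Mup18. Over HFD it was 0.02, -0.44, -0.18 and -0.21, and each of these genes held only 13 to 32 counts there in all. Alas2, of haem synthesis in red cell precursors, was at 69.7, 137, 13.6, 14.9 and 122 CPM in LFD and 1.89, 4.596, 1.31, 1.56 and 2.15 CPM in HFD (-4.95 ± 0.79, adjusted p = 0.00139). Each LFD library lay above every HFD library in Serpina6, Ugt1a5 and Alas2. Red blood cell genes fell in 5 of 5, in 1 in limma voom or without LFD replicates 2 and 5, in 3 without LFD replicate 2, whose red cell genes took 0.848% of the counts, and in 1 without HFD replicate 1, HFD replicate 3, HFD replicate 4 or HFD replicate 5.

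The changes were not spread evenly over the genome. For genes that did not follow albumin, the median log2 level of a chromosome's genes was set in each library against the median of all such genes. Chromosome 19 was 0.24 higher in HFD than in LFD by this measure (LFD -0.04 to 0.09, HFD 0.20 to 0.27), and 53.9% of its 343 genes rose, against 24.3% of the class. Chromosome 4 was 0.20 higher, chromosome 12 0.17, chromosome 2 0.16 and chromosome 13 0.15, with 44.1%, 39.5%, 38.4% and 35.7% of genes risen. Lower in HFD were chromosome 11 at -0.16, chromosome 14 at -0.15, chromosome 10 at -0.13, chromosome 1 at -0.12, chromosome 9 at -0.11 and chromosome 7 at -0.05. The diets did not overlap for these 11 chromosomes (p = 0.00794 each by two-sided exact permutation, and 0.0144 adjusted over 20 chromosomes). Chromosomes 5 and 17 passed as well, at -0.06 each (adjusted exact p = 0.0397 and 0.0488), and the other 7 did not.

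Along most of these chromosomes the windows moved in the same direction. In windows of 10 Mb with at least 20 genes, the median log2 fold change of the window less that of all such genes was above 0.1 in 8 of 8 windows of chromosome 4, 8 of 10 of chromosome 13, 6 of 8 of chromosome 12, 9 of 14 of chromosome 2 and 5 of 6 of chromosome 19. It was below -0.1 in 8 of 10 windows of chromosome 10, 8 of 11 of chromosome 11, 8 of 12 of chromosome 1, 4 of 6 of chromosome 14 and 6 of 10 of chromosome 9. Chromosome 7 was divided, with 3 of 13 windows above 0.1, at 10 to 30 Mb and 40 to 50 Mb, and 6 below -0.1, at 70 to 130 Mb. Chromosomes 6 and X, which did not pass as wholes, were divided too. Chromosome 6 had 3 of 9 windows above 0.1, at 120 to 150 Mb, and 5 below -0.1. Chromosome X had 3 of 6 windows below -0.1 and 3 above 0.1. The latter, at 130 to 140 Mb and 150 to 170 Mb, stood at 0.56 to 0.63, above every window of the other chromosomes. Among genes of at least 20 CPM that did not follow albumin, 66.2% of those on chromosome 19 rose and 56.4% of those on chromosome 4, against 28.48% over all chromosomes. The cells injected for each diet and diet itself cannot be told apart in these shifts. Of the genes described above, Ahnak2 and Nova1 lie on chromosome 12, Hoxd3 and Hoxd8 on chromosome 2, F2rl1 on chromosome 13 and Trnp1 and Ccl21a on chromosome 4. S100a4 and Itga10 lie on chromosome 3, Pi16 on chromosome 17, Ly6c1 on chromosome 15 and Crispld2 on chromosome 8. Other large rises lie on chromosomes that were lower in HFD, with Mmp28 on chromosome 11, Htr1b on chromosome 9 and Bnc1 and H19 on chromosome 7.

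**Figure D5:**
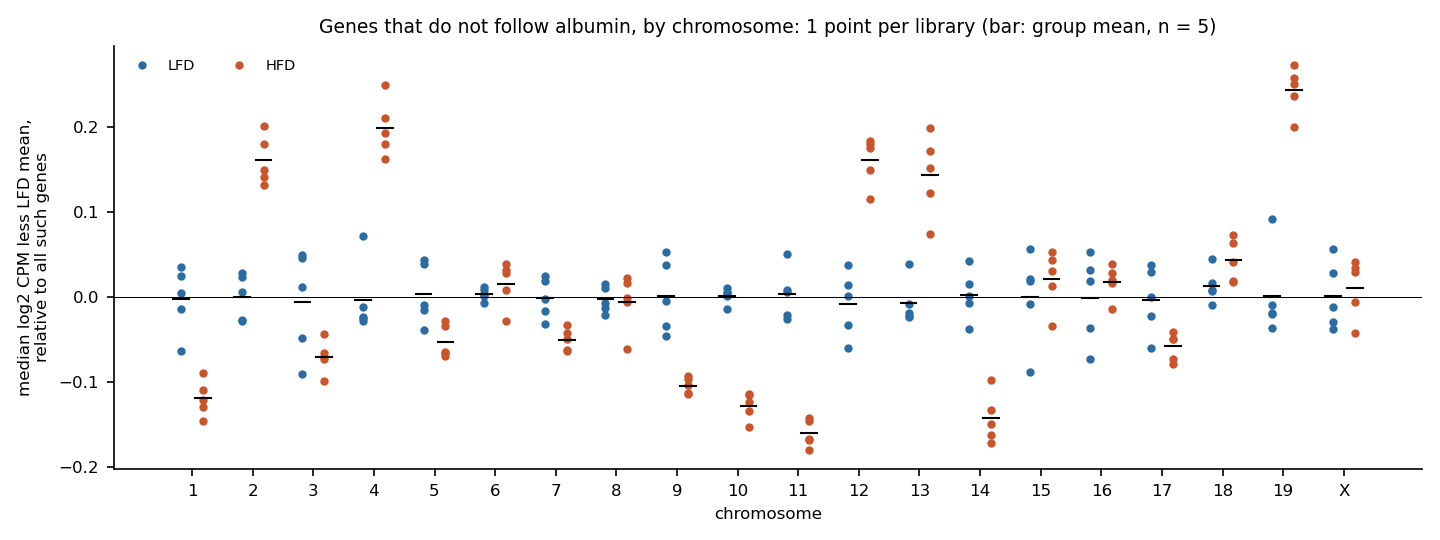
Median log2 level of the genes of each chromosome that did not follow albumin, relative to all such genes, in each LFD and HFD library. The HFD libraries lie between 0.20 and 0.27 on chromosome 19 and between -0.18 and -0.14 on chromosome 11, away from the LFD libraries.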

How the data were processed

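Total RNA of 10 tumours (5 LFD, 5 HFD) was analysed from 1 table that the authors deposited, with 22137 genes in estimated counts that need not be whole (59.7% were). Per the submitters' processing notes, the tools were STAR 2.7.3a, Partek and DESeq2 and the builds GRCm38 and mm10, with no role stated for any. The annotation used for counting and the strand of the libraries are not given in the sources used here, so a gene and its antisense partner cannot be told apart. Positions are from GENCODE M21, in which 97.4% of the genes were found by symbol, start and strand. The smallest mean of a gene was 1, so the table had been filtered before deposit.

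The estimated counts deposited were rounded and fitted with edgeR 4.0.16 in R 4.3.3 (filterByExpr, which left 16340 genes; TMM factors; the quasi-likelihood F test with robust dispersion and diet as the only term; Benjamini-Hochberg adjusted p under 0.05). The standard error is the absolute log2 fold change over the square root of F. Depth was 17766200 to 18474200 counts per library, and counting intervals (95%) and floors (3 counts per library) cover counting error only. No label ties a library to an animal of its own, so p-values reflect only the spread of these libraries. The albumin classes used log2 CPM with a prior count of 2. Named genes were the 15 largest rises and falls with a mean of at least 5 CPM that did not follow albumin (predicted genes, pseudogenes and antigen receptor segments left out), at most 4 genes by p from each of 54 lists (814 genes), and Alb, Xist and Yap1. Some genes that the rule names are not reported here. Further members are given by values only where their list is described. The members, lists and rules were chosen with earlier results of these data known. Alternatives were DESeq2 1.42.0, limma 3.58.1 (voom), RLE and upper-quartile factors, scaling without genes that followed albumin, other filters, the replicate number as a block, albumin or hepatocyte covariates, sums of the closest HFD pairs, other definitions of following albumin and each library left out. Fits without sex-linked and sex-biased genes, without LFD replicates 2 and 5, and chromosome medians over other genes were added after seeing the data. The fit was tested on simulated data.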

Additional observations from a re-analysis of the deposited data

Results flagged for a closer look

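In 60 genes and library measures, each diet group of 5 was checked for a library whose gap to its nearest neighbour took more than 0.71 of the group's range, a limit that chance passes in about 1 of 20 groups. Of 120 groups 12 passed, 7 of them through LFD replicate 5.

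LFD replicate 5 stood above the other LFD libraries in genes that were higher in HFD: S100a4 at 230.4 CPM, Spp1 at 445.6 CPM, F2rl1 at 26.0 CPM, Igf2bp2 at 17.01 CPM, Ahnak2 at 13.2 CPM, Mmp28 at 4.64 CPM and Pi16 at 3.499 CPM. In each of these genes it still lay below the lowest HFD library. The same library had the highest albumin share (3.52%) and the lowest TMM factor (0.684) of the 10, and the part of these in its values was not tested.

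LFD replicate 2 was high in Trnp1 at 15.2 CPM. In HFD, replicate 5 stood out in H19 at 31.4 CPM, replicate 2 in Alas2 at 4.596 CPM and replicate 1 in Ngfr at 1.59 CPM, while replicate 1 was low in Hoxd3 at 9.32 CPM.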

How the results depend on the processing

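The albumin difference kept its direction with the hepatocyte list, with TMM-scaled CPM and with each library left out (-5.09 to -4.22, exact permutation p up to 0.0159). The number of genes called, 6710, was 5523 to 7253 with each library left out, and 2730 to 3646 in place of 3347 among genes that did not follow albumin. It stayed within 1.5 times in DESeq2, limma voom, the other scalings and filters, without sex-linked and sex-biased genes (6683) and without LFD replicates 2 and 5 (7473). Removing the sex-linked and sex-biased genes does not test whether sex affects the other genes. Counts moved further with the albumin covariate (669, and 245 among genes that did not follow it), the hepatocyte covariate (1260 and 366) and the closest HFD pairs summed (4233 and 2062). Under other definitions of following albumin the second count was 1864 (absolute r under 0.3), 5046 (under 0.7), 1767 (LFD libraries alone) and 2930 (hepatocyte list). Alb itself turned to 0.000221 with the albumin covariate and 0.16 with the hepatocyte covariate, and Mup18 to 0.0472 with the latter, each by the construction of the covariate or with the cause not tested.

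With the replicate block 4929 genes were called, 2375 of them among genes that did not follow albumin. Libraries with the same number deviated from their diet means with correlations of 0.315, -0.50, 0.104, 0.304 and -0.27, and 0 of 10 libraries correlated best with its own number, so the numbers do not pair the samples. Of 140 named genes DESeq2 kept the call of each, and the replicate block lost 6 (H19, Ccl21a, Lin28b, Mcam, Havcr2 and B2m) and the summed pairs 6 (Lin28b, Srebf2, Mcam, Havcr2, Il1rl1 and B2m).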

Other observations

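The second table of the series holds tumours of HFD mice whose MC38 cells carried a control hairpin (shCon, n = 4), quantified separately, so its levels are given as CPM of the library total and no test was made across tables. Of the 15 largest rises named above, the shCon median lay on the HFD side of the range of both diets for 3, between the diets for 6 and on the LFD side for 6, and of the 15 largest falls for 4, 7 and 4. Of the 7 falls between the diets, Cyp3a41a, Cyp3a41b, Cyp2b13 and Cyp2a4 lay near the HFD level, with shCon medians of 0.0128, 0.0116, 0.0977 and 0.520 CPM against LFD medians of 126, 27.5, 20.6 and 62.4. Alb was at 4505 to 18866 CPM in shCon, against 5791 to 35172 in LFD and 184 to 2050 in HFD, and the part of this liver share in the levels below was not tested. Of the other genes named by the same rules, the shCon median lay on the HFD side for 12, between for 26 and on the LFD side for 72. Among the 72, Cd4 had medians of 6.89 CPM in shCon, 8.05 in LFD and 1.97 in HFD. In the same order Zap70 had 5.61, 5.85 and 1.42 CPM, and Itgal 57.7, 61.2 and 20.3 CPM. H2-K1, among the 12, had 1062, 1377 and 938 CPM. Hoxd3 was at 12.4 to 16.2 CPM in shCon, against 0.769 to 1.88 in LFD and 10.2 to 15.4 in HFD. S100a4 was at 131 to 174 CPM in shCon, against 24.3 to 157 in LFD and 631 to 709.8 in HFD on the same scale. Pi16 was at 1.78 to 4.01 CPM, against 0.901 to 2.39 and 10.03 to 23.9.

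Further genes were set side by side on the same scale. Bnc1 was at 18.8 to 27.6 CPM in shCon, against 2.72 to 4.84 in LFD and 17.98 to 24.3 in HFD, and Itga10 at 6.92 to 17.1 CPM, against 5.01 to 22.3 and 73.997 to 80.3. Spp1 was at 416 to 474 CPM, against 209 to 317 and 1221 to 1452, and Elane at 0.210 to 4.14 CPM, against 3.28 to 8.14 and 0 to 0.162. Xist was at 0 to 0.105 CPM in shCon, against 76.8 to 141 in LFD and 0.0548 to 0.325 in HFD.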
